A study of Brassica napus with 24 samples.

Results

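GA2OX2 and CYP90B1 are a pair of hormone metabolism genes that were followed in leaves, buds and anthers of rapeseed (Brassica napus) after spraying with the chemical hybridization agent MES. Each was measured by 1 probe, A_46_P182574 for GA2OX2 (Arabidopsis match AT1G30040) and A_46_P095591 for CYP90B1 (AT3G50660), so that 2 of 43603 probes other than controls are described. The probes were chosen because the study listed them as changed by MES in An-MBs and as different between tissues, which means that their MES effect in An-MBs and their levels between tissues are descriptions here and carry no test. Gene names are those of the Arabidopsis match given by the study. Rapeseed carries several copies of most Arabidopsis genes, and which copy a probe measures was not examined.

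GA2OX2 encodes a gibberellin 2-oxidase, an enzyme that in Arabidopsis inactivates bioactive gibberellins and their precursors by hydroxylation. Gibberellins are needed for stamen elongation, for the tapetum (the inner anther wall layer that feeds the microspores) and for pollen. CYP90B1, also called DWF4, is the cytochrome P450 that carries out the C-22 hydroxylation of brassinosteroid synthesis, a step at which the flux of that pathway is set in Arabidopsis. Arabidopsis mutants without brassinosteroids have short filaments and few pollen grains.

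Young leaves (Ls), small buds before and during the pollen mother cell stage (SBs), anthers of middle buds from meiosis to early microspores (An-MBs) and anthers of large buds from vacuolated microspores to mature pollen (An-LBs) were collected from field plants of 1 cultivar, Zhongshuang No. 9. All plants were sprayed at the bolting stage with about 15 mL of a solution holding the solvent DMF (50 ppm) and the wetting agent Tween 80 (5 ppm), to which 0.1 µg/mL MES, monosulfuron-ester sodium, was added for the MES-treated group and none (0) for the mock-treated group. MES inhibits acetolactate synthase, and at this low dose it makes rapeseed plants male sterile. Each of the 8 groups held 3 biological replicates, each a mixture of many plants and hybridized to 1 array, and errors are SD over the 3 arrays of a group unless stated otherwise. The names of the arrays leave it unclear whether mock An-MBs replicates 1 and 2 are 2 preparations of 1 sample, although the labels give them as separate replicates. Over all probes their processed signals had a Pearson r of 0.883, below the 0.919 and 0.950 of the other pairs of that group. On the normalized log2 scale it was 0.982, between the 0.975 and 0.986 of the other pairs. These values do not settle the question, and the arrays were kept as 2 replicates. RNA of whole organs was measured, so that fewer cells of a type and less RNA per cell cannot be told apart.

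Between 73.0% and 81.9% of probes were well above background per array. Pollen markers (14 probes, among them VGD1, PPME1 and ADF7) summed to between 21.22 and 21.41 on the log2 scale in mock An-LBs and between 10.74 and 12.51 in MES-treated An-LBs. In An-MBs they summed to between 16.85 and 18.96 in the mock and between 8.28 and 9.25 in the MES-treated group, close to the 9.15 to 9.76 of leaves. The 2 tapetum probes, LAP6 of sporopollenin synthesis and AT3G52130, were both well above background in all SBs arrays and in none of the leaf arrays. In An-MBs they were both well above background on the MES-treated arrays and at most 1 of them was on a mock array. Their sums were 11.52, 5.44 and 4.43 in mock replicates 1, 2 and 3, and between 11 and 11.55 in the MES-treated group. Mock replicate 1 thus lay within the MES-treated range. LAP6 was 6.74 ± 4.16 in mock and 8.17 ± 1.93 in MES-treated An-MBs, and the groups overlapped. The groups did not overlap for AT3G52130, with 3.63 ± 0.8 in mock and 11.02 ± 0.42 in MES-treated An-MBs. Mock and MES-treated arrays were on different slides, so that slide and treatment cannot be told apart, and the array of MES-treated An-LBs replicate 2 stood on a slide of its own that was read on another scanner model.

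**Figure D1:**
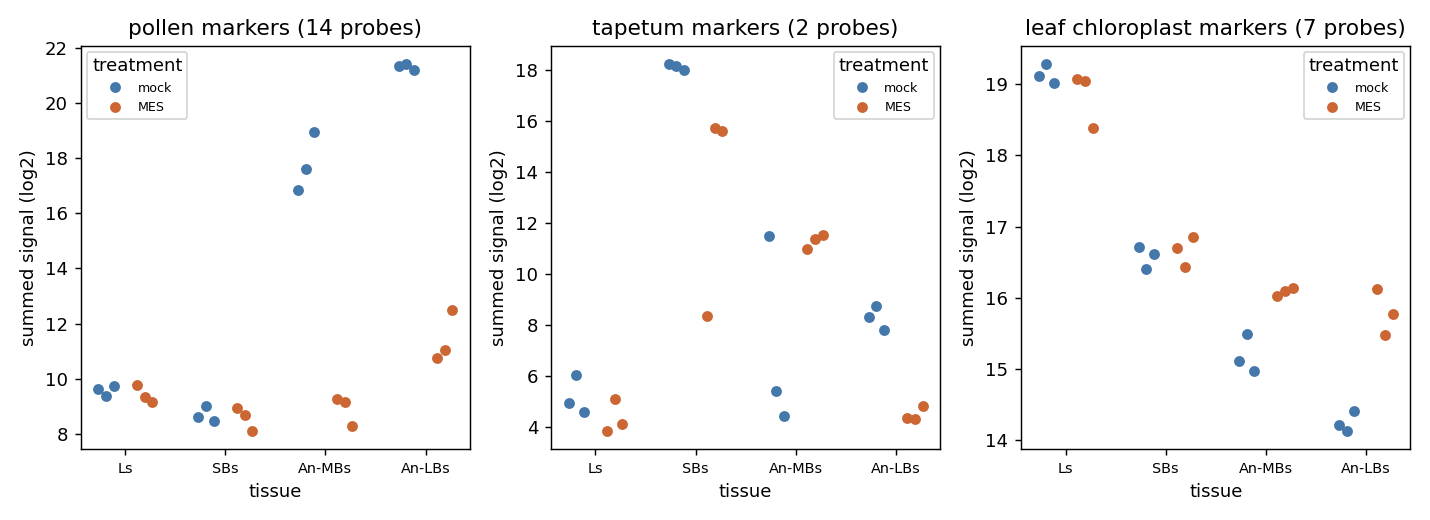
Summed log2 signal of pollen, tapetum and leaf chloroplast marker probes (vertical axis) in the 4 tissues (horizontal axis), each point 1 array, mock in blue and MES in orange. Pollen markers lie between 21.22 and 21.41 in mock An-LBs and between 10.74 and 12.51 after MES.

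GA2OX2 was the more variable of the pair. Its probe was well above background on 24 of 24 arrays, and the normalized log2 signal ran from 5.85 to 12.75, a span of 6.90. The highest level was that of MES-treated SBs and the lowest that of mock An-LBs. In each tissue the mean of the MES-treated group was above that of the mock group.

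In mock plants the GA2OX2 signals of leaves were 6.83, 7.22 and 8.33 in replicates 1, 2 and 3, those of SBs 9.93, 10.59 and 10.58, those of An-MBs 8.51, 8.97 and 9.01, and those of An-LBs 6.07, 5.85 and 6.55. SBs were the highest of the mock groups on all 3 arrays, and An-LBs were below every other array. On the means, mock SBs were above mock An-LBs by 4.21 on the log2 scale, or 18.5-fold, above mock leaves 7.49-fold and above mock An-MBs 2.90-fold. The mock An-LBs signal was near the limit of measurement, with processed signals of 62.1, 36.4 and 109, where the dimmest probes called well above background on those arrays lay between 4.63 and 5.14 on the log2 scale.

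In MES-treated plants the GA2OX2 signals of leaves were 8.29, 8.28 and 11.38, those of SBs 12.19, 12.17 and 12.75, those of An-MBs 10.96, 10.92 and 11.28, and those of An-LBs 11.59, 10.30 and 11.28. SBs were again the highest group. An-LBs no longer stood lowest, and their mean of 11.06 ± 0.67 was the same as the 11.06 ± 0.20 of MES-treated An-MBs. The span between the group means was 4.22 in mock and 3.05 in MES-treated plants.

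From the highest to the lowest mean, GA2OX2 followed the order MES-treated SBs, MES-treated An-LBs, MES-treated An-MBs, mock SBs, MES-treated leaves, mock An-MBs, mock leaves and mock An-LBs. Neighbours in this order whose arrays overlapped were MES-treated An-LBs and An-MBs, mock SBs and MES-treated leaves, and MES-treated leaves and mock An-MBs. The other 4 neighbouring pairs did not overlap.

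**Figure D2:**
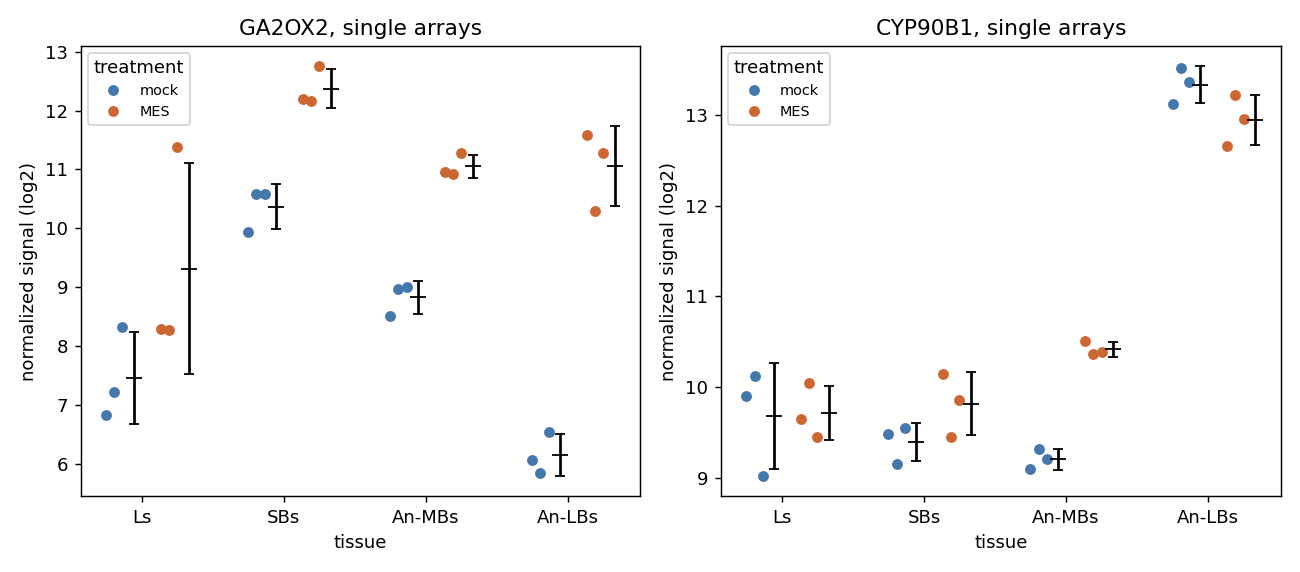
Normalized log2 signal of GA2OX2 (left) and CYP90B1 (right) on each of the 24 arrays, by tissue, mock in blue and MES in orange. Black bars are the mean ± SD of 3 arrays. GA2OX2 ran from 5.85 to 12.75, while CYP90B1 was above 12.6 in An-LBs and at most 10.51 elsewhere.

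The MES effect on GA2OX2 was tested by limma in leaves, SBs and An-LBs, and a gene was called where the signal changed 2-fold or more and the p adjusted by Benjamini-Hochberg over all probes tested was under 0.05. In An-LBs GA2OX2 rose from 6.15 ± 0.36 to 11.06 ± 0.67, a log2 change of 4.90 with a standard error of 0.38, or 29.9-fold. The adjusted p was 0.000264 and the 95% interval ran from 15.8-fold to 56.9-fold. The lowest MES-treated array, at 10.30, was far above the highest mock array, at 6.55. By size of its rise the probe ranked 156 of 35095 tested. Of those probes, 17.3% were called higher and 11.9% lower, so that a call alone was common in this tissue. The median change of all probes tested in An-LBs was 0.24, which left GA2OX2 4.67 above it. The rise came to 3.80 after normexp background correction, which compresses dim signals, with an adjusted p of 0.000159. Without the array read on the other scanner it was 5.28, with an adjusted p of 0.000447. The mock An-LBs arrays also entered the tissue comparisons by which the study chose the probe. Its screen compared MES with mock in An-LBs as well, and by its t-test and threshold the rise passed here (p 0.000373). The test in An-LBs is thus not fully independent of the study's list.

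Pollen marker signal fell between the same arrays by the amounts given above, and leaf chloroplast markers, all 7 of them well above background on every array, summed to between 14.13 and 14.41 in mock An-LBs and between 15.48 and 16.13 in MES-treated An-LBs. Tapetum markers summed to between 7.80 and 8.77 in mock and between 4.33 and 4.82 in MES-treated An-LBs. Of these LAP6 was well above background on the 3 mock arrays and on 0 of the MES-treated arrays, at least 13.1-fold lower, and AT3G52130 was on none of the 6. The part of these cell types in the rise of GA2OX2 was not tested.

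In SBs GA2OX2 rose from 10.37 ± 0.38 to 12.37 ± 0.33, a log2 change of 2.01 with a standard error of 0.26, or 4.01-fold. The adjusted p by limma was 0.0174, the 95% interval ran from 2.59-fold to 6.23-fold, and the groups did not overlap. Among 33935 probes tested in SBs, 1.81% were called higher and 2.32% lower, and GA2OX2 ranked 301 by size of its rise. The call did not hold in every fit. Without MES-treated replicate 3 the change was 1.81 with an adjusted p of 0.0645, and without mock replicate 1 it was 1.79 with an adjusted p of 0.0770. With slide as a random block in a fit of all 24 arrays it was 1.99, with an adjusted p of 0.0671. Tapetum markers summed to between 18.01 and 18.24 in mock SBs and to 8.36, 15.74 and 15.61 in MES-treated replicates 1, 2 and 3, in which the GA2OX2 signal was 12.19, 12.17 and 12.75. Pollen markers were between 8.10 and 9.00 in both SBs groups. The part of tapetum RNA in the rise was not tested.

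In leaves the mean of GA2OX2 was 7.46 ± 0.78 in mock and 9.32 ± 1.79 in MES-treated plants, and the groups overlapped. The log2 difference of 1.85 had a standard error of 0.92 and an adjusted p of 0.232 by limma, with a 95% interval from -0.38 to 4.09. This fit, which does not pair the replicates, thus allows anything from a small decrease to a 17-fold rise. With the replicate number as a block the standard error was 0.43 and the adjusted p 0.0679, which did not pass either. In leaves 2.52% of 32491 probes were called higher and 2.3% lower. The difference rested largely on MES-treated replicate 3, at 11.38, without which it was 0.82 with an adjusted p of 0.288. In the fits of all 24 arrays, which pool the spread of all groups, the adjusted p was 0.0422, and 0.0411 with slide as a random block.

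MES-treated leaf replicate 3 stood apart in other measures as well. Of its probes 79.3% were well above background, against 73.0% to 73.8% on the other 5 leaf arrays. The 891 probes that were more than 4 log2 units higher in mock SBs than in mock leaves had a median of 6.10 on this array, against 5.35 and 4.21 in MES-treated replicates 1 and 2 and 3.59 to 4.27 in mock leaves. The 514 probes with the opposite difference had a median of 9.91, against 11.01 to 12.17 on the other leaf arrays. Chloroplast markers summed to 18.39 on it and to between 19.02 and 19.28 on the others. These probe groups were picked after the values had been seen, and the part of that array's make-up in its GA2OX2 signal was not tested.

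In An-MBs, the contrast by which the probe was chosen, GA2OX2 was 8.83 ± 0.28 in mock and 11.06 ± 0.20 in MES-treated plants, which is a log2 difference of 2.23 with a standard error of 0.24, or 4.68-fold. The 3 MES-treated arrays were all above the 3 mock arrays. With mock replicates 1 and 2 averaged as 1 sample the difference was 2.18. Without MES-treated replicate 2, whose processed signal was 1110 against 2720 and 3500 in replicates 1 and 3, it was 2.29. Of the 34773 probes tested in An-MBs, 4.24% were called higher and 2.86% lower.

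**Figure D3:**
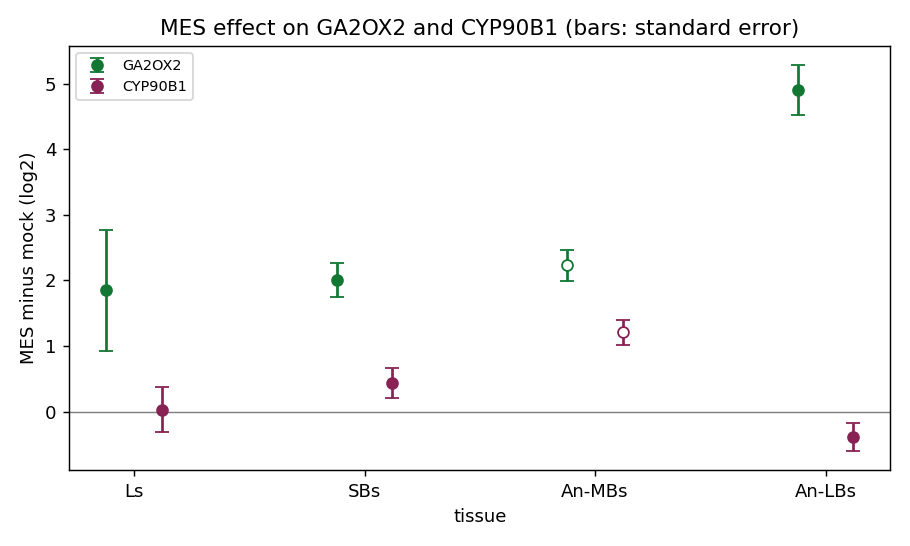
MES minus mock difference in log2 signal (vertical axis) for GA2OX2 in green and CYP90B1 in purple in the 4 tissues, with bars of 1 standard error from the limma fit of each tissue. Open points mark An-MBs, the contrast that was used to choose the probes. GA2OX2 lies at 4.90 in An-LBs and near 2 in the other tissues, and CYP90B1 at 1.21 in An-MBs and between -0.39 and 0.43 in the others.

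Whether the MES effect on GA2OX2 differed between tissues was tested as an interaction in 1 limma fit of all 24 arrays. The signals of these arrays also entered the comparisons between tissues by which the probe was chosen, so that these tests are not independent of the choice. The rise in An-LBs exceeded that in leaves by 3.05 on the log2 scale, with a standard error of 0.84 and an adjusted p of 0.0108. It exceeded that in SBs by 2.90, with a standard error of 0.84 and an adjusted p of 0.0193. Differences at an adjusted p under 0.05 were found for 28.9% of probes in the first of these contrasts and for 21.2% in the second, so that GA2OX2 shared them with many probes. The effects in SBs and leaves differed by 0.15, with an adjusted p of 0.946 and a 95% interval from -1.62 to 1.92, and 3.78% of probes passed in that contrast. The difference between An-LBs and SBs was 1.82 with an adjusted p of 0.0799 after normexp correction, and 2.63 with an adjusted p of 0.0510 without MES-treated An-LBs replicate 1. The difference between An-LBs and leaves was 4.08 without MES-treated leaf replicate 3, with an adjusted p of 2e-05.

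CYP90B1 separated the tissues in another way. Its probe was well above background on 24 of 24 arrays with a span of 4.50, from 9.02 to 13.52, and the signal was high in An-LBs of either treatment, lower in MES-treated An-MBs, and lower still in the other 5 groups, whose means lay between 9.20 and 9.82. In mock plants the signals were 13.12, 13.52 and 13.36 in An-LBs, 9.90, 10.12 and 9.02 in leaves, 9.48, 9.15 and 9.55 in SBs, and 9.09, 9.32 and 9.20 in An-MBs. Mock An-LBs were thus 17.6-fold above mock An-MBs, 15.4-fold above mock SBs and 12.6-fold above mock leaves.

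In MES-treated plants the CYP90B1 signals were 12.66, 13.22 and 12.95 in An-LBs, 9.65, 10.04 and 9.45 in leaves, 10.14, 9.45 and 9.86 in SBs, and 10.51, 10.36 and 10.38 in An-MBs. The distance between An-LBs and An-MBs was 5.77-fold here. An-LBs had the highest mean in mock plants, followed by MES-treated An-LBs, whose arrays overlapped with them, then by MES-treated An-MBs, which overlapped with neither neighbour. MES-treated SBs, MES-treated leaves, mock leaves, mock SBs and mock An-MBs followed, with means between 9.20 and 9.82 and an overlap between each neighbouring pair.

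None of the 3 tests of MES on CYP90B1 passed. In leaves the difference was 0.03 with a standard error of 0.34 and an adjusted p of 0.958 by limma, with a 95% interval from 0.579-fold to 1.80-fold. In SBs the mean was 9.39 ± 0.22 in mock and 9.82 ± 0.35 in MES-treated plants, a difference of 0.43 with an adjusted p of 0.341 and an interval from 0.919-fold to 1.97-fold. In An-LBs it was 13.34 ± 0.20 in mock and 12.94 ± 0.28 in MES-treated plants, a difference of -0.39 with an adjusted p of 0.182 and an interval from 0.535-fold to 1.09-fold. The intervals leave out a change of 2-fold in either direction in each of these tissues, by these fits. Relative to the median of all probes tested the difference in An-LBs was -0.63.

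In An-MBs, where the probe was chosen for its change, CYP90B1 was 9.20 ± 0.12 in mock and 10.42 ± 0.08 in MES-treated plants. The log2 difference was 1.21, or 2.32-fold, and all 3 MES-treated arrays were above the mock arrays. The MES-treated An-MBs level lay 2.53 below that of MES-treated An-LBs.

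The MES effects on CYP90B1 in An-LBs and SBs differed by -0.82, with a standard error of 0.36, an unadjusted p of 0.0342 and an adjusted p of 0.117 by limma. The differences between An-LBs and leaves, at -0.42, and between SBs and leaves, at 0.40, had adjusted p-values of 0.402 and 0.574. Over the 24 arrays the signals of GA2OX2 and CYP90B1 had a Pearson r of -0.27 and a Spearman rho of -0.13, as a description over arrays that share tissues and treatments. GA2OX2 was lowest in mock An-LBs, where CYP90B1 was highest.

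The other probe that the study placed in the gibberellin class was AT1G52820, a 2-oxoglutarate-dependent oxygenase like GA2OX2. Like the hormone metabolism probes named below, it was listed by the study for an MES change in at least 1 tissue of these samples. The p-values of these probes are therefore not independent of that choice. AT1G52820 rose in An-LBs from 8.78 ± 0.38 to 10.89 ± 0.31, by 2.11 on the log2 scale with an adjusted p of 0.00178. In An-MBs it rose from 4.54 ± 0.57 to 8.66 ± 0.40, by 4.12 with an adjusted p of 0.00287. There it was well above background on 2 of the 3 mock arrays, so that the size of this rise is uncertain. In SBs it was 5.96 ± 0.31 in mock and 5.98 ± 0.26 in MES-treated plants, where GA2OX2 had risen, and in leaves it was well above background on 1 array of each group and was not tested.

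BR6OX1, brassinosteroid-6-oxidase, acts downstream of CYP90B1 in brassinosteroid synthesis. It resembled CYP90B1 in mock plants, with 9.73 ± 0.50 in An-LBs and means between 4.37 and 5.34 in the other mock tissues, where it was well above background on 1 array only, of An-MBs. In An-LBs it fell to 5.06 ± 0.52, with an adjusted p of 0.000263 by limma. It was well above background on 1 of the 3 MES-treated arrays, so that the size of this fall is uncertain. Whether BR6OX1 and CYP90B1 responded differently was not tested.

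The 19 other hormone metabolism probes were selected by the study for an MES change in these same samples. They therefore give no independent evidence of direction or of the number that changed. The probes tested as a whole, given beside them, were not so selected. Of the 19, 19 were tested in An-LBs, 16 in An-MBs, 12 in SBs and 11 in leaves. In An-LBs 7 rose and 11 fell, where 17.3% and 11.9% of all probes did, with a list median of -1.73 against 0.24 over all probes tested. In An-MBs 6 rose and 3 fell, against 4.24% and 2.86% of all probes, with a median of 0.40 against -0.04. The number that rose was unstable, from 1 to 7 with 1 array left out. The 7 came without MES-treated replicate 2, whose median signal was 383.9, against 1098 and 1162 on replicates 1 and 3. Its normalized log2 signals had r = 0.945 and 0.954 with these, which had r = 0.989 with each other. Without any 1 mock array of An-MBs the number that fell was 0. AT5G53820 and AT5G44300 were well above background on the 3 mock arrays only. Without 1 of these they missed the filter on dim probes and were not tested. AT5G20810, the other that fell, was still tested and did not pass. In SBs 1 rose and 0 fell, against 1.81% and 2.32% of all probes, with a median of 0.80 against 0.05. Of the 12, 6 had an unadjusted p under 0.05, as had 22% of all probes, and the number that rose was 0 without MES-treated replicate 3 or mock replicate 1 and 2 without mock replicate 2 or 3. In leaves 2 rose and 0 fell, against 2.52% and 2.3% of all probes, with a median of 0.49 against -0.05. Of the 11, 6 had an unadjusted p under 0.05, as had 29.6% of all probes. The number that rose in leaves was 0 without any 1 of the mock arrays, and with the replicate number as a block 3 rose and 1 fell.

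The probes that rose in An-LBs beside GA2OX2 included enzymes that act on other hormones. UGT76C1, which in Arabidopsis attaches glucose to cytokinins, rose by 3.00 with an adjusted p of 7.77e-05. It also rose by 1.89 in An-MBs with an adjusted p of 0.0127. UGT74E2, which the study placed in the salicylic acid class and which in Arabidopsis glucosylates the auxin indole-3-butyric acid, rose by 3.51 in An-LBs and by 2.51 in An-MBs, with adjusted p-values of 0.000103 and 0.0236. AT2G30840, an oxygenase of the ethylene class, rose by 3.92 in An-LBs with an adjusted p of 0.000162. It was well above background on 2 of the 3 mock An-LBs arrays, so that the size of this rise is uncertain. NSP5, a nitrile specifier protein of glucosinolate breakdown in the jasmonate class, rose by 2.32 in leaves, by 1.92 in An-MBs and by 2.19 in An-LBs, and its difference of 0.94 in SBs did not pass, with an adjusted p of 0.259.

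Among auxin-responsive genes, AT4G27450 rose in leaves from 5.98 ± 0.28 to 12.44 ± 1.15, by 6.46 with an adjusted p of 0.0207. In mock leaves it was well above background on 2 of the 3 arrays, so that the size of this rise is uncertain. It also rose by 3.03 in An-MBs and by 5.63 in An-LBs, and its change of 2.2 in SBs had an adjusted p of 0.0628. AT5G13370, of the GH3 family whose members join amino acids to hormones, was the probe of the list that rose in SBs, by 1.22 with an adjusted p of 0.0144. It also rose by 2.04 in An-MBs, and its difference of 0.46 in An-LBs did not pass.

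Most of the abscisic acid class fell in An-LBs, the group in which pollen marker signal was also lower. The LEA protein AT5G53820 fell by 9.38, the membrane protein ATTSPO fell by 5.65 and GEM, a GRAM domain protein, fell by 1.73. ATHVA22B was not well above background after MES and was at least 202-fold lower, while ATEM6 was at least 2.24-fold higher, having been not well above background in mock. In each bound the dim group was set at the higher of its own signal and the dimmest probe well above background on that array. In the auxin class the SAUR-like AT5G20810 fell by 6.49, AT3G26370 fell by 5.09 and AT1G14970 fell by 2.91, all at adjusted p-values under 0.05, and AT5G44300 was at least 1190-fold lower. In the ethylene class ACS8, which makes the precursor of ethylene, was at least 2.42-fold lower and AT4G20880 fell by 1.65. In An-MBs, AT5G53820 was at least 5600-fold lower, AT5G44300 at least 405-fold lower, and AT5G20810 fell by 2.55. The part of pollen RNA in these falls was not tested.

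**Figure D4:**
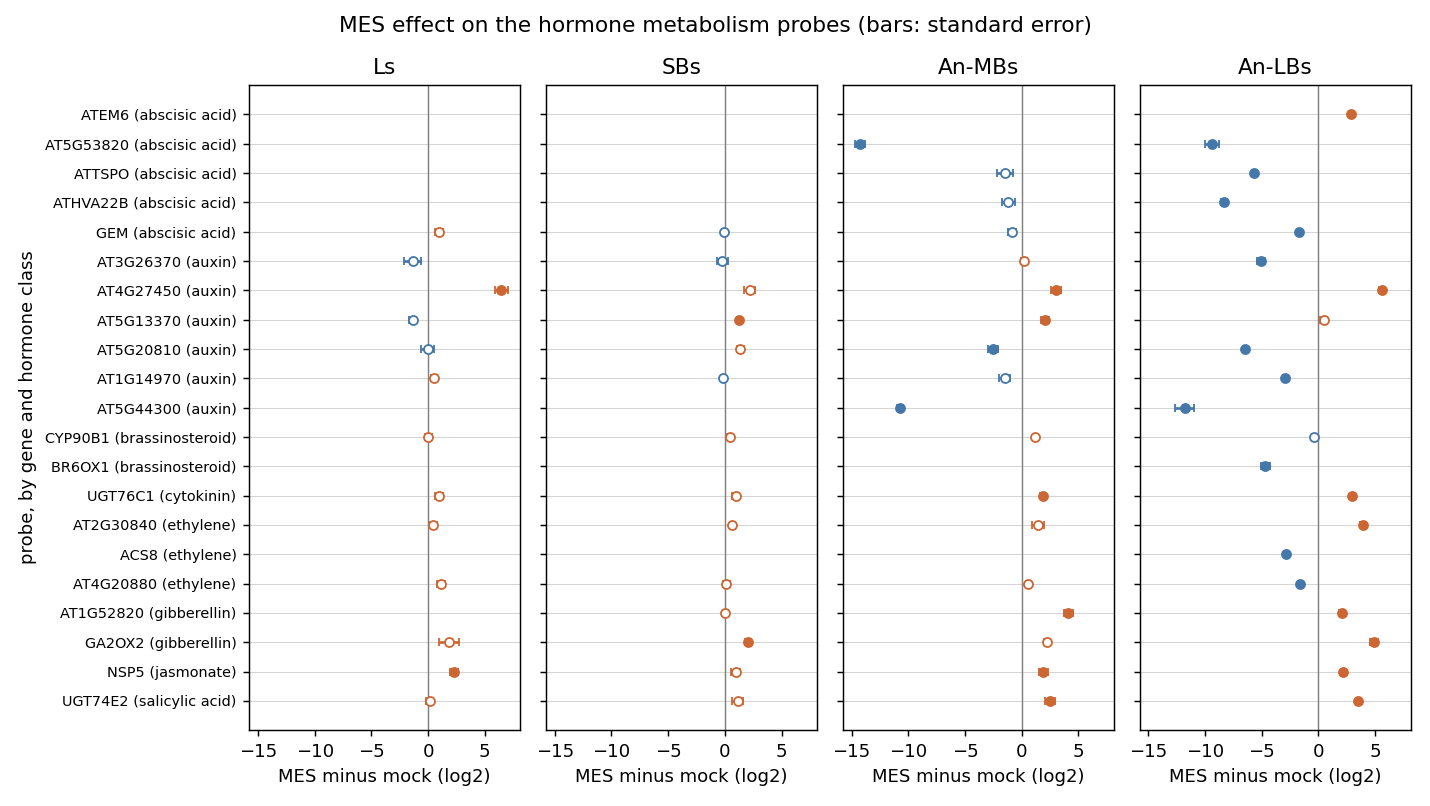
MES minus mock difference in log2 signal (horizontal axes) for the 21 hormone metabolism probes (vertical axis, with the hormone class of the study) in the 4 tissues, with bars of 1 standard error. Filled points passed the test, open points did not or, for GA2OX2 and CYP90B1 in An-MBs, were not tested, and probes without a point were too dim to test. In An-LBs 7 of the 19 probes other than GA2OX2 and CYP90B1 rose and 11 fell. These 19 were selected by the study for an MES change in these samples.

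Of 5 probes for hormone response factors and a carrier, 4 rose in An-LBs, where 17.3% of all probes did. The 5 were taken from those that the study names in its tables and so were chosen on these samples. Neither this number nor their p-values are independent of that choice. The auxin response factor ARF2 rose by 3.51 with an adjusted p of 6.76e-05, and ARF11 was at least 3.17-fold higher, having been not well above background in mock. ARF17, which is needed for pollen wall formation in Arabidopsis, rose by 1.03 in An-LBs with an adjusted p of 0.0145 and fell by 1.80 in SBs with an adjusted p of 0.0104. EIL1, a transcription factor of ethylene signalling, rose by 1.95 in An-LBs and by 1.03 in leaves, with adjusted p-values of 0.000452 and 0.0411. The auxin influx carrier AUX1 fell by 1.1 in leaves with an adjusted p of 0.0334, and its difference of 0.15 in An-LBs did not pass.

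Likeness to GA2OX2 was ranked by Pearson r over the 24 arrays among 33705 other probes well above background on at least 12 arrays. These correlations describe arrays that share tissues, treatments and a common normalization. The highest were A_46_P355815 with r = 0.94, A_46_P144514 with r = 0.93 and A_46_P182729 with r = 0.93, none of which has a name in the study. A_46_P355815 went from 4.74 ± 1.19 in mock An-LBs to 12.43 ± 0.44 after MES and from 7.99 ± 0.40 to 11.26 ± 0.18 in An-MBs. It was also high on 1 MES-treated leaf array, at 12.46, in a group whose lowest array was 6.91. A_46_P144514 kept within a narrower range, from 13.58 ± 0.06 in mock An-LBs to 14.48 ± 0.07 in MES-treated SBs.

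Among the 1055 of these probes that the study names with an Arabidopsis gene, those most like GA2OX2 were AT4G21110, a G10 family protein, with r = 0.92, MEE59 (AT4G37300) with r = 0.91 and the NAC domain protein AT3G10490 with r = 0.90. MEE59 went from 13.78 ± 0.30 in mock An-LBs to 16.09 ± 0.32 after MES. The least like it was AT3G02570, a mannose-6-phosphate isomerase, with r = -0.92, which went from 13.82 ± 0.19 to 11.66 ± 0.24 in the same comparison. Not all probes of the hormone list passed the filter of 12 arrays. Among those that did, the highest values were 0.72 for AT4G27450 and 0.71 for UGT76C1, and the lowest was -0.80 for AT3G26370.

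CYP90B1 was matched more closely. A_46_P309875 had r = 0.98, A_46_P328290 had r = 0.97 and A_46_P058056 had r = 0.97, all without a name. A_46_P309875 was at 16.23 ± 0.09 in mock An-LBs and 16.36 ± 0.45 in MES-treated An-LBs, with means between 11.97 and 13.21 elsewhere. It went from 12.15 ± 0.21 to 13.21 ± 0.07 in An-MBs, where CYP90B1 went from 9.20 to 10.42. The named probes most like CYP90B1 were AT2G47670, a pectin methylesterase inhibitor family member, with r = 0.93, and AT3G62650 and AT4G11910 with r = 0.91 each. AT2G47670 departed from the pattern in An-LBs, with 17.13 ± 0.27 in mock and 14.56 ± 0.16 after MES. The least like it was AT1G74790, with r = -0.87. Among the probes of the hormone list that passed the filter, r was 0.84 for AT1G52820 and 0.81 for AT4G20880, an ethylene-responsive nuclear protein. BR6OX1 did not pass it and was not ranked.

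**Figure D5:**
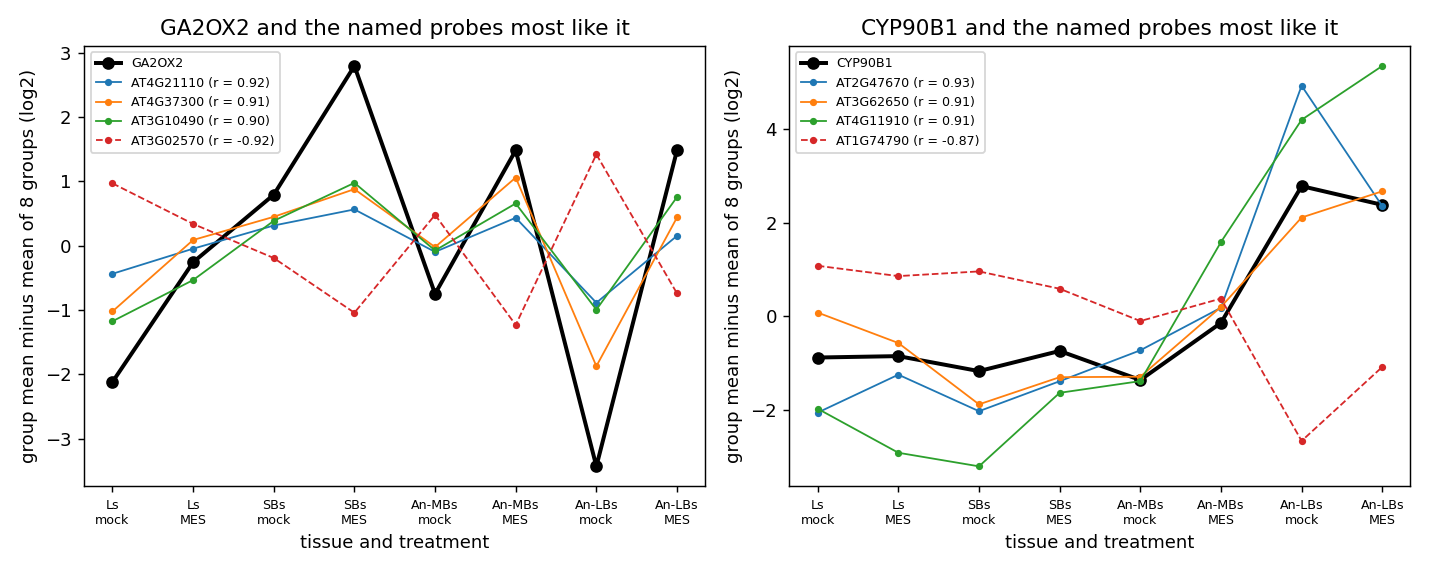
Group means of GA2OX2 (left, black) and CYP90B1 (right, black) in the 8 groups, each with the 3 named probes of highest r and the 1 of lowest r (dashed) over 24 arrays. The vertical axis is the group mean minus the mean of the 8 groups, in log2 units. Group means of GA2OX2 span a wider range than those of its 3 most like named probes.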

How the data were processed

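RNA of 24 samples was hybridized to 1-colour Agilent arrays (Cy3). Per the file headers the intensity of each spot was made by the authors with Feature Extraction (version 10.7.3.1, while the submitters' notes name 9.1), with the background subtracted but without a common scale for the arrays. The deposited table holds log2 values that the authors had quantile normalized in GeneSpring, and the values computed here differ from them by a median of 6.54e-07.

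Here the processed intensity was averaged over spots of a probe, transformed to log2 and quantile normalized over the 24 arrays, without 1417 control spots. Uneven or outlying spots had no weight. MES was compared with mock within each tissue by limma (version 3.58.1, R 4.3.3) on 6 arrays, over probes well above background on at least 3, two-sided, with Benjamini-Hochberg adjustment over all probes tested. A call needed a 2-fold change or more with an adjusted p under 0.05, and interactions an adjusted p under 0.05 in 1 fit of 24 arrays. Each kind of fit was tested on simulated data first. The number of arrays limits the precision. Named probes are GA2OX2, CYP90B1, the study's hormone metabolism probes, 5 response factors or carriers, and for each of the pair the probes of highest and lowest correlation. The members and lists were chosen with earlier results of these data known. None (0) of 40632 identifiers on the arrays was found in the RefSeq table, so names come from the study and no sequences are shown.

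Replicate numbers were checked as pairs by correlating deviations of equally numbered arrays from their group means. The coefficients were 0.145, 0.252 and 0.429 in leaves, and at least 1 was under 0.1 in each other tissue. Alternatives were a shift to the 75th percentile, normexp with an offset of 50, the authors' values, no filter or a strict one on dim probes, outlying spots kept at full weight, 1 fit for the whole set of arrays, a block for replicate number or slide, the methods' t-test, mock An-MBs replicates 1 and 2 averaged, and each array left out in turn. The arrays of 1 scan day alone were added after the data were seen. In leaves, SBs and An-MBs this left out mock replicate 1 only, which is also 1 of the fits with an array left out. For the pair the authors' values gave the same changes as those computed here, so that they are no separate check.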

Additional observations from a re-analysis of the deposited data

Results flagged for a closer look

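The MES effect on GA2OX2 differed between tissues by the interaction test in 2 contrasts. The rise in An-LBs was larger than that in leaves by 3.05 on the log2 scale, and larger than that in SBs by 2.90. The first passed the test in each of the 12 fits that left out 1 array, with values from 2.53 to 4.08, and the second in 11 of 12, with values from 2.63 to 3.28. The 3 mock An-LBs arrays, which have the lowest GA2OX2 signals of all, enter both contrasts, so that these are not independent of each other, nor of the tissue comparisons by which the probe was chosen. In groups of 3 arrays single outlying samples were not searched for.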

How the results depend on the processing

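The rise of GA2OX2 in An-LBs kept its call in all 11 alternatives, between 3.80 and 5.24, and with each array left out, between 4.64 and 5.28. In SBs it lost the call with all 24 arrays in 1 fit (2.01, adjusted p 0.0694) and with slide as a random block (1.99). The call was also lost by the methods' t-test at their threshold (2.01, p 0.00227) and with the arrays of scan day 2 only (1.79). The last was added after seeing the data. In SBs it leaves out mock replicate 1 alone, and so repeats a fit with 1 array left out. With 1 array left out the rise ran from 1.79 to 2.12. In leaves it was called with all 24 arrays in 1 fit (1.85) and with slide as a random block (1.84), and ran from 0.82 to 2.37 with 1 array left out. In An-MBs, normexp brought GA2OX2 to 1.96 and CYP90B1 to 1.08, and the 75th percentile shift CYP90B1 to 1.1. With 1 array left out these ran from 2.07 to 2.32 and from 1.15 to 1.27. The leaf difference of CYP90B1 changed sign without MES-treated replicate 2 (-0.13) and without mock replicate 3 (-0.30), within a range of -0.30 to 0.25, while SBs ran from 0.26 to 0.61 and An-LBs from -0.53 to -0.25.

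The difference of the GA2OX2 effect between SBs and leaves changed sign under the 75th percentile shift (-0.02) and without MES-treated leaf replicate 1 (-0.36) or 2 (-0.37), mock leaf replicate 3 (-0.28), MES-treated SBs replicate 3 (-0.04) or mock SBs replicate 1 (-0.07), within -0.37 to 1.18. That between An-LBs and SBs did not pass after normexp (1.82) or without MES-treated An-LBs replicate 1, with 2.63 to 3.28 when 1 array was left out, and that between An-LBs and leaves ran from 2.53 to 4.08. For CYP90B1 these differences ran from 0.18 to 0.72 for SBs less leaves, from -0.64 to -0.10 for An-LBs less leaves and from -1 to -0.66 for An-LBs less SBs with 1 array left out. With the replicate number as a block, the last was -0.82 and passed (adjusted p 0.0389). Under that block the GA2OX2 change in leaves was 1.85 with an adjusted p of 0.0679, and no other call on the pair changed. In the check the lowest coefficient was 0.145 in leaves, 0.0164 in An-MBs, -0.0664 in SBs and -0.234 in An-LBs. Whether the numbers pair the arrays was not tested.

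Of the other hormone probes, the number higher in leaves was 1 with no filter or with the strictest filter on dim probes, and from 0 to 3 with 1 array left out: 1 without MES-treated replicate 1 and 0 without any 1 of the mock arrays. The number lower in leaves was 1 with the replicate block and from 0 to 1 with 1 array left out. In SBs the number higher was 2 under the 75th percentile shift and from 0 to 2 with 1 array left out, being 0 without MES-treated replicate 3 or mock replicate 1, and the number lower stayed at 0. In An-MBs the numbers ran from 1 to 7 higher and from 0 to 4 lower with 1 array left out, with 2 higher without MES-treated or mock replicate 1, 1 without MES-treated or mock replicate 3 and 3 without mock replicate 2. In An-MBs 1 was lower under the strictest filter. In An-LBs 7 were lower under that filter, which tests fewer probes, and with 1 array left out 6 to 7 were higher and 8 to 11 lower. Probes well above background on 3 arrays only were not tested without 1 of these. In An-LBs these were ATHVA22B, AT5G44300 and ACS8 on mock arrays, without 1 of which 8 were lower. ATEM6 was such a probe on MES-treated An-LBs arrays, without 1 of which 6 were higher. In An-MBs AT5G53820 and AT5G44300 were such probes on mock arrays. The causes of the other shifts were not tested. Signal near background limits the mock An-LBs level of GA2OX2.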
